A study of Mus musculus with 10 samples.

Results

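The 10 genes described here run the calcium cycle of the sarcoplasmic reticulum of skeletal muscle. They comprised the pumps Atp2a1 and Atp2a2, the pump inhibitors Sln and Pln, the buffers Casq1, Casq2 and Pvalb, the release channels Ryr1 and Ryr3, and the junction protein Jph1. They were found by their gene symbol among 19938 genes measured, and were read by 11 of the 21789 probe sets that carried 1 gene symbol, with a pair of probe sets for Jph1 and 1 for each other gene.

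The 10 arrays, of the Affymetrix Mouse Gene 1.0 ST type, all came from mice labelled C56BL6N and 8 weeks old, although the methods have TA electroporated at that age and sampled later, and in another place give an older age. In TA (tibialis anterior), a muscle at the front of the shin made up mostly of fast fibers, 2 arrays held fibers that had received shlinc-MYH, a plasmid expressing an shRNA against the nuclear long non-coding RNA linc-MYH, and 2 held fibers with the control vector. In both TA groups 10 µg of plasmid was electroporated and the GFP-positive fibers were dissected 2 weeks later, so the fibers that took up no plasmid were left out as far as GFP marked them. In gastrocnemius, a mainly fast calf muscle, 3 arrays came from cSix1 KO mice and 3 from control mice labelled wild type. The labels name the muscle GAS, while the paper names it GP for these arrays, short for gastrocnemius plantaris. The cSix1 KO is a conditional knockout by floxed alleles and a Cre driven by the human skeletal actin promoter, which acts in skeletal muscle fibers and leaves the alleles intact in the other cells of the muscle. The methods say that the electroporated muscles of each condition belonged to different mice, and that the control plasmid, coding for an shRNA against LacZ, went into the TA of the opposite leg. Shlinc-MYH and control arrays may therefore share mice, but no source says which array came from which mouse or that a replicate number marks one. Nothing stated that the gastrocnemius arrays of 1 group came from separate animals, and p-values there measure the spread between these arrays, which may be technical. The targeted RNAs were not analysed here, so they did not check the labels.

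A fiber contracts when calcium leaves the sarcoplasmic reticulum through ryanodine receptors, and relaxes when a calcium ATPase of the SERCA family pumps the calcium back. Calsequestrin holds calcium inside the store, parvalbumin binds it in the cytosol, and sarcolipin and phospholamban are small membrane proteins that inhibit the pump. Fast fibers are known for SERCA1 (Atp2a1), calsequestrin 1 (Casq1) and much parvalbumin (Pvalb), and slow fibers, like the heart, for SERCA2 (Atp2a2), calsequestrin 2 (Casq2) and phospholamban (Pln). Junctophilin 1 (Jph1) ties the store to the surface membrane at the site of release, where Ryr1 is the main channel of skeletal muscle and Ryr3 a minor one.

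RefSeq promoter windows of GRCm38.p6, each 250 bases before to 50 bases after a transcription start, matched 6 of the 10 genes in 7 windows. Atp2a2, Sln, Ryr3 and Jph1 had no entry. The 120 bases before the start are given for both calsequestrin genes, as a slow and a fast form of one buffer whose differences had opposite signs in gastrocnemius, and for the fast pump and phospholamban. Capitals mark an E-box (CANNTG), the letters bound by myogenic factors of the MyoD family.
Casq2, chr3:102086295-102086414, + strand: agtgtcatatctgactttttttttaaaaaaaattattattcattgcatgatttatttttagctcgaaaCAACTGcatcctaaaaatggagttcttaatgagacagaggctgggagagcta
Casq1, chr1:172219896-172220015, - strand: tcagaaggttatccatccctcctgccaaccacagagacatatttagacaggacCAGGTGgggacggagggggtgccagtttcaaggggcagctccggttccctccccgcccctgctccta
Atp2a1, chr7:126463074-126463193, - strand: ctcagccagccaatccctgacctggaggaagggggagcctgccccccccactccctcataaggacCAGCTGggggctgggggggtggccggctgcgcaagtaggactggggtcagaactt
Pln, chr10:53337566-53337685, + strand: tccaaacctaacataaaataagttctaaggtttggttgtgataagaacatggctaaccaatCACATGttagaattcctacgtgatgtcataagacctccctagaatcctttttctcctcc

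The capitals lie 52 bases before the start in Casq2, 67 in Casq1, 55 in Atp2a1 and 59 in Pln, so each of the 4 stretches holds 1 E-box. Over all 32851 promoters, 40.2% had an E-box in these 120 bases and 72.3% had one in the whole window. The 4 stretches were picked from the 7 windows, so they give no share to set beside the 40.2%. In the same 120 bases the Pvalb windows held 0 and 1 E-box, and the Ryr1 window held 0. Over their whole length 5 of the 7 windows held an E-box, and those without one were the Ryr1 window and 1 of a pair of Pvalb windows. The MEF2 core (CTA and TAG with 4 bases of any kind between them) was in none of the 7 windows, against 3.69% of all promoters. These are matches of letters within a short window and are not evidence of binding or of its lack.

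The array values were log2 signals normalized by the RMA method. The 4 TA arrays had medians of 5.09 to 5.14 and the 6 gastrocnemius arrays medians of 6.60 to 6.67, so no level was compared between tissues, and levels of different probe sets were not set against each other. Arrays of the same group correlated at 0.984 to 0.995 over probe sets. Genes were called at an adjusted p under 0.05 in limma, with Benjamini-Hochberg adjustment over all genes and each tissue fitted on its own. The slow fiber marker list (9 genes, among them Tnnt1, Tnni1 and Tnnc1) had 0 genes called in TA and 7 called higher in gastrocnemius, and the fast fiber list (7 genes) had 0 called in both.

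The first question was whether the calcium genes differed in TA fibers with the shRNA against linc-MYH. Sln, Atp2a2 and Casq2 had higher signals on both shlinc-MYH arrays than on both control arrays, by 3.27-fold, 1.69-fold and 2.15-fold, and Pln, Jph1 and Atp2a1 had lower signals on both. None of the 10 genes passed the limma test, where 0.015% of all genes were called higher and 0% lower, 3 genes and 0 genes. At 2 arrays against 2, groups that do not overlap were common: 16.3% of all genes were higher without overlap, beside 3 of the 10, and 23% were lower without overlap, beside 3 of the 10. The methods' t-test also called 0 of the 10 after adjustment, and 0 of all genes. Without adjustment, 3 of the 10 were higher and 1 lower at p under 0.05 in limma, against 852 and 872 of all 19938 genes.

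Sln, which encodes sarcolipin, stood at 7.61 and 7.32 on the shlinc-MYH arrays, against 5.90 and 5.62 on the control arrays. Both shlinc-MYH arrays lay well above both controls, and the gap between the groups was several times the spread within either. The log2 difference was 1.71 ± 0.16 (SE, n = 2 each), with a 95% interval of 1.32 to 2.10 and an adjusted p of 0.0579 in limma, just above the threshold. Over the alternatives that kept all arrays, the adjusted p ran from 0.0102 in limma to 0.691 in the methods' t-test. Sln was called when arrays were centred on their medians (0.0467), with the replicate block (0.0355) and with all 10 arrays in 1 fit (0.0102). These 3 settings called 10, 5 and 131 of all genes in TA, against 3 in the main fit.

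Pln, the other pump inhibitor, stood at 7.83 and 7.97 in shlinc-MYH fibers and at 8.57 and 8.49 in control fibers. The groups did not overlap and ran opposite to those of Sln. The difference was -0.63 ± 0.12 on the log2 scale (SE, n = 2 each), with an adjusted p of 0.353 in limma.

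Of the pumps, Atp2a2 stood at 9.23 and 8.88 in shlinc-MYH fibers, against 8.55 and 8.06 in control fibers. The arrays of each group spread by 0.35 and 0.49, and the lower shlinc-MYH array lay above the higher control array by less than either spread. The log2 difference was 0.76 ± 0.20 (SE, n = 2 each; interval 0.27 to 1.25; adjusted p = 0.471 in limma). Atp2a1, the pump of fast fibers, stood at 12.51 and 12.37 in shlinc-MYH fibers and at 12.60 and 12.62 in control fibers. Its groups did not overlap, but the difference of -0.17 ± 0.12 had an interval that held 0, from -0.46 to 0.12. The Atp2a1 signal was at percentile 99.97 of the control genes, where array signals are compressed. The same limit holds in TA for Pvalb (percentile 99.96), Casq1 (99.89) and Jph1 (99.81), which are read below.

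Casq2 stood at 8.94 and 8.48 in shlinc-MYH fibers, against 8.14 and 7.07 in control fibers. The spread between the control arrays was nearly as large as the difference between the groups, which was 1.11 ± 0.35 (SE, n = 2 each; adjusted p = 0.501 in limma). Without control replicate 2 the difference was 0.57 and without control replicate 1 it was 1.64. The slow fiber marker list differed on the same arrays, with a mean log2 signal of 8.12 and 8.39 in shlinc-MYH fibers, against 7.80 and 6.88 in control fibers, and the control array with less Casq2 was the one with the lower marker signal. The part of the marker signal in the difference was not tested. In bulk RNA, fewer fibers of a type and less RNA per fiber cannot be told apart. Casq1 stood at 12.29 and 11.92 in shlinc-MYH fibers, and the control fibers at 12.10 and 12.18 lay between these values.

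The remaining genes of fast fibers and of release had small differences in TA. Pvalb stood at 12.61 and 12.46 in shlinc-MYH fibers and at 12.56 and 12.61 in control fibers, and Ryr1 at 9.99 and 9.71 in shlinc-MYH fibers and at 9.98 and 9.93 in control fibers. In both genes the groups overlapped. The difference of Pvalb was -0.05, with an interval of -0.35 to 0.24, and that of Ryr1 was -0.10, with an interval of -0.43 to 0.24. Ryr3, whose control signal was only at percentile 30.9, stood at 4.52 and 4.30 in shlinc-MYH fibers and at 4.51 and 4.50 in control fibers. Jph1 stood at 11.57 and 11.41 in shlinc-MYH fibers, against 11.64 and 11.85 in control fibers, a difference of -0.25 ± 0.13 (SE, n = 2 each; adjusted p = 0.653 in limma). Its second probe set gave -0.40, with the same direction. Over the 10 genes, the median log2 difference was -0.07, and it was -0.03 over all genes.

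**Figure D1:**
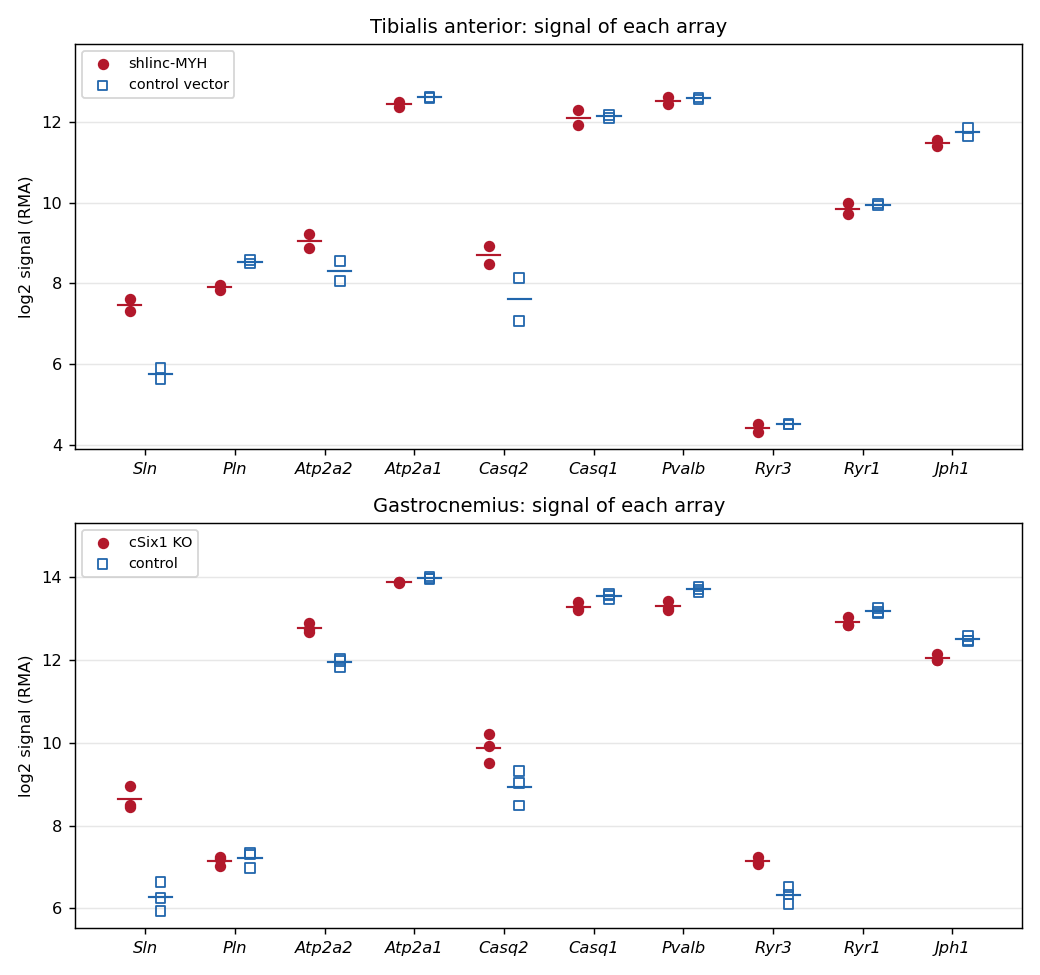
Log2 signal of each array for the 10 calcium genes, with shlinc-MYH (n = 2) left of control vector (n = 2) in TA above, and cSix1 KO (n = 3) left of control (n = 3) in gastrocnemius below; short lines mark group means. Sln, Atp2a2 and Casq2 lie above their controls in both tissues, Ryr3 lies above its controls in gastrocnemius and overlaps them in TA, and Pln lies below its controls in TA while its groups overlap in gastrocnemius.

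The second question was whether the same genes differed in gastrocnemius of cSix1 KO mice. Sln rose 5.14-fold, Atp2a2 1.77-fold and Ryr3 1.77-fold in cSix1 KO muscle, and Jph1 fell to 72.8% of the control signal. These 4 of the 10 genes were called by limma, 3 higher and 1 lower, where 0.908% of all genes were called higher and 0.833% lower. The cSix1 KO and control arrays did not overlap for 9 of the 10 genes, 4 higher and 5 lower, where 11% of all genes were higher without overlap and 9.85% were lower. Pln was the exception. With array weights 7 of the 10 were called, beside 4.96% of all genes. With the methods' t-test 0 were called after adjustment, beside 4 of all genes.

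Sln stood at 8.51, 8.96 and 8.44 on the cSix1 KO arrays, against 6.64, 6.25 and 5.93 on the control arrays. The lowest cSix1 KO array was well above the highest control. The log2 difference was 2.36 ± 0.19 (SE, n = 3 each; interval 1.91 to 2.81; adjusted p = 0.00292 in limma), the largest among the 10 genes, from a dim control signal at percentile 37.1. Pln, by contrast, stood at 7.24, 7.21 and 7.02 in cSix1 KO muscle, and at 7.31, 7.34 and 6.98 in control muscle. The groups overlapped, and the difference of -0.05 had an interval of -0.31 to 0.20.

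Atp2a2 stood at 12.76, 12.89 and 12.67 in cSix1 KO muscle, against 12.02, 11.84 and 11.98 in control muscle. The gap between the groups was several times the spread within either. The log2 difference was 0.83 ± 0.08 (SE, n = 3 each; interval 0.63 to 1.02; adjusted p = 0.00596 in limma). Atp2a1 stood at 13.87, 13.88 and 13.89 in cSix1 KO muscle and at 13.97, 14.02 and 13.96 in control muscle, so every cSix1 KO array was below every control. The difference of -0.10 ± 0.06 was not called (adjusted p = 0.508 in limma), at a signal at percentile 99.98 of the control genes.

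Among the buffers, Casq2 stood at 9.93, 10.20 and 9.51 in cSix1 KO muscle, against 9.32, 8.48 and 9.03 in control muscle. Its groups did not overlap, but the lowest cSix1 KO array was close to the highest control array. The difference of 0.94 ± 0.23 (SE, n = 3 each) was not called, with an adjusted p of 0.102 in limma. Casq1 stood at 13.22, 13.26 and 13.40 in cSix1 KO muscle, against 13.47, 13.56 and 13.60 in control muscle, a difference of -0.25 ± 0.08 (adjusted p = 0.173 in limma). Pvalb stood at 13.21, 13.26 and 13.43 in cSix1 KO muscle and at 13.65, 13.71 and 13.78 in control muscle. Every cSix1 KO array was lower, and the difference of -0.41 ± 0.08 (SE, n = 3 each; interval -0.60 to -0.23) had an adjusted p of 0.0525 in limma. It passed in 6 of 16 alternatives and stayed over the threshold in the other 10. Those that kept all arrays were array centring, dim genes left out, the robust prior with an intensity trend, array weights and all 10 arrays in 1 fit. Without cSix1 KO replicate 3 the difference was -0.48 and also passed, with an adjusted p of 0.0219 in limma. Over the alternatives the adjusted p ran from 0.0122 in limma to 0.199 in the methods' t-test.

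Ryr3, the minor release channel, stood at 7.07, 7.24 and 7.12 in cSix1 KO muscle, against 6.34, 6.11 and 6.52 in control muscle. The cSix1 KO arrays lay closer together than the controls and all above them. The log2 difference was 0.82 ± 0.11 (SE, n = 3 each; interval 0.57 to 1.07; adjusted p = 0.0143 in limma), at a dim control signal at percentile 38.1. The call was lost without control replicate 1, with an adjusted p of 0.0576 in limma, and without cSix1 KO replicate 2, with 0.0659, in a range of 0.00362 to 0.177 over the alternatives. Ryr1, the main channel, stood at 12.86, 12.85 and 13.04 in cSix1 KO muscle, against 13.13, 13.16 and 13.26 in control muscle. Its groups did not overlap, and the difference of -0.26 ± 0.08 was not called (adjusted p = 0.166 in limma).

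Jph1 stood at 12.00, 12.00 and 12.15 in cSix1 KO muscle, against 12.48, 12.46 and 12.58 in control muscle. Every cSix1 KO array was lower, by 0.46 ± 0.07 in the mean on the log2 scale (SE, n = 3 each; adjusted p = 0.0286 in limma). The second Jph1 probe set stood at 11.00, 11.06 and 11.22 in cSix1 KO muscle, against 11.51, 11.57 and 11.63 in control muscle, and also passed, at -0.48 and an adjusted p of 0.0297 in limma. Leaving out any of the 3 control arrays, or cSix1 KO replicate 1 or 2, took the first probe set over the threshold, with adjusted p-values of 0.0813 to 0.123 in limma (0.00549 to 0.163 over all alternatives), while its difference stayed between -0.51 and -0.42.

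**Figure D2:**
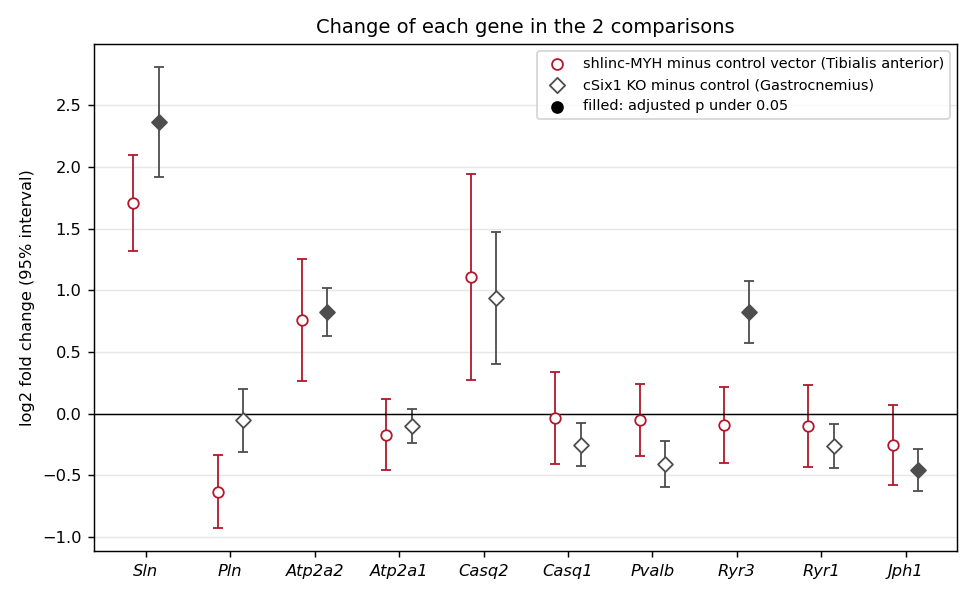
Log2 fold change of each gene, shlinc-MYH minus control vector in TA (circles, n = 2 each) left of cSix1 KO minus control in gastrocnemius (diamonds, n = 3 each), with 95% intervals from limma and filled symbols for an adjusted p under 0.05. Sln, Atp2a2, Ryr3 and Jph1 are filled in gastrocnemius and no gene is filled in TA.

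Pairs of genes were then set against each other on each array, as the difference of their log2 signals. They were the slow and fast pump, the slow and fast calsequestrin, the pump inhibitors, and the minor and main release channel. Only the change of this difference between groups is read, since each gene has its own probe set. No test was made because the genes were chosen with earlier results known. The Atp2a2 minus Atp2a1 difference was -3.27 and -3.49 on the shlinc-MYH arrays, against -4.05 and -4.57 on the TA control arrays, a change of 0.93 toward the slow pump. In gastrocnemius it was -1.12, -0.99 and -1.21 in cSix1 KO muscle, against -1.95, -2.18 and -1.98 in control muscle, a change of 0.93. In both tissues the groups did not overlap, and most of the change came from Atp2a2.

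The Casq2 minus Casq1 difference was -3.35 and -3.44 in shlinc-MYH fibers, against -3.96 and -5.11 in control fibers, a change of 1.14. In cSix1 KO muscle it was -3.29, -3.06 and -3.89, against -4.15, -5.08 and -4.58 in control muscle, a change of 1.19. The groups were separate in both tissues, but the spread was wide: the SD was 0.06 in shlinc-MYH fibers and 0.81 in their controls, and 0.43 in cSix1 KO muscle and 0.46 in its controls. The change in TA was 0.57 without control replicate 2 and 1.72 without control replicate 1.

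Of the pump inhibitors, Sln gained on Pln in both tissues. The paper counts Sln among slow-type genes, and Pln is named above for slow fibers, so this pair is not slow against fast. Pln minus Sln was 0.22 and 0.65 in shlinc-MYH fibers, against 2.67 and 2.87 in control fibers, a change of -2.34. In gastrocnemius it was -1.27, -1.75 and -1.42 in cSix1 KO muscle, against 0.67, 1.09 and 1.05 in control muscle, a change of -2.42. In TA both genes contributed, with Sln higher and Pln lower, and in gastrocnemius nearly all of it was Sln. Among the 4 pairs this one had the largest change in each tissue.

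For the release channels, Ryr3 minus Ryr1 was -5.47 and -5.41 in shlinc-MYH fibers and -5.47 and -5.43 in control fibers, with overlapping groups and a change of 0.01. In cSix1 KO muscle it was -5.80, -5.61 and -5.92, against -6.79, -7.05 and -6.74 in control muscle, a change of 1.08 without overlap. The Ryr3 control signal was dim in both tissues, at percentile 30.9 in TA and 38.1 in gastrocnemius.

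**Figure D3:**
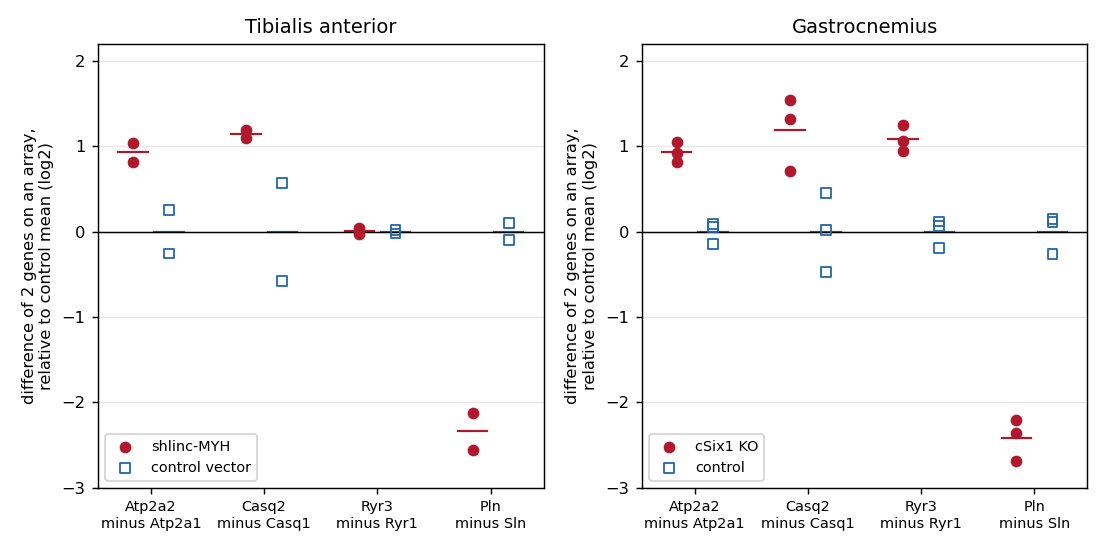
Difference of the log2 signals of a pair of genes on each array, minus the mean of the same difference in the control group, with shlinc-MYH left of control vector in TA (n = 2 each) and cSix1 KO left of control in gastrocnemius (n = 3 each); lines mark means. The Atp2a2, Casq2 and Pln pairs differed from control by 0.93, 1.14 and -2.34 in TA and by 0.93, 1.19 and -2.42 in gastrocnemius, and the Ryr3 pair by 0.01 in TA and 1.08 in gastrocnemius.

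Whether a gene differed more in one comparison than in the other was tested by 1 contrast over all 10 arrays, the TA log2 difference minus that of gastrocnemius. It takes 1 spread for both tissues, whose signals lie on different scales. Muscle and intervention differ together between the comparisons, so the contrast cannot tell them apart. None of the 10 genes passed in limma, where 0.0752% of all genes were called higher and 0.0702% lower. At an unadjusted p under 0.05, 1 of the 10 was higher and 3 lower, against 1038 higher and 1416 lower of all 19938 genes. Ryr3 came nearest, at -0.09 in TA and 0.82 in gastrocnemius, a difference of -0.91 ± 0.17 (SE, adjusted p = 0.0785 in limma). The Ryr3 control signal in TA was dim, at percentile 30.9, so a change there may not show. Pln gave -0.58 ± 0.17 (adjusted p = 0.245 in limma), Sln -0.66 ± 0.29 (0.401) and Pvalb 0.36 ± 0.13 (0.319). For Atp2a2 the difference was -0.07 with an interval of -0.54 to 0.40, and for Casq2 it was 0.17 with an interval of -0.84 to 1.18, which leaves room for a sizeable difference in either direction.

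Of 50 other calcium handling genes listed, 44 were measured on a probe set of their own, with 0 called in TA. There 17 had a value above 0 and 27 below it, with a median of -0.05. The genes with the largest moderated statistic in size were Tmem38b, a counter-ion channel of the reticulum, at 0.83 ± 0.17 (adjusted p = 0.393 in limma), Mcu, the pore of the mitochondrial calcium uniporter, at 0.42, Camk2d, a calmodulin-dependent kinase subunit, at 0.28, and Cav3, a caveolin of the muscle membrane, at 0.29. None of these passed the test.

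In cSix1 KO gastrocnemius, 0 of the 44 genes were called higher and 4 lower, against 0.908% and 0.833% of all genes. There were 14 values above 0 and 30 below it, with a median of -0.08. Stim2, a sensor of calcium in the reticulum, stood at 8.40, 8.45 and 8.59 in cSix1 KO muscle, against 9.28, 9.37 and 9.35 in control muscle. The groups were far apart, and the fall of 0.85 ± 0.07 on the log2 scale (SE, n = 3 each) had an adjusted p of 0.00363 in limma. Jph2, the junctophilin best known from the heart, stood at 10.01, 10.04 and 10.07 in cSix1 KO muscle, against 10.48, 10.65 and 10.66 in control muscle. Jph2 thus fell beside Jph1, by 0.56 ± 0.07 (adjusted p = 0.0139 in limma). Calm3, 1 of the calmodulin genes, fell by 0.46 (adjusted p = 0.0283), and Camk2g, a calmodulin-dependent kinase subunit, by 0.40 (adjusted p = 0.0388), both in limma. Stim2 kept its call with any 1 array left out, and lost it only with the methods' t-test (adjusted p = 0.113). Jph2 lost it without control replicate 2 or cSix1 KO replicate 1 or 2 (adjusted p of 0.0655 to 0.0678), and Calm3 and Camk2g lost it when any array other than cSix1 KO replicate 3 was left out (0.058 to 0.157), all in limma. Over all alternatives the adjusted p ran from 0.0046 to 0.133 for Jph2, from 0.0092 to 0.163 for Calm3 and from 0.0129 to 0.163 for Camk2g.

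**Figure D4:**
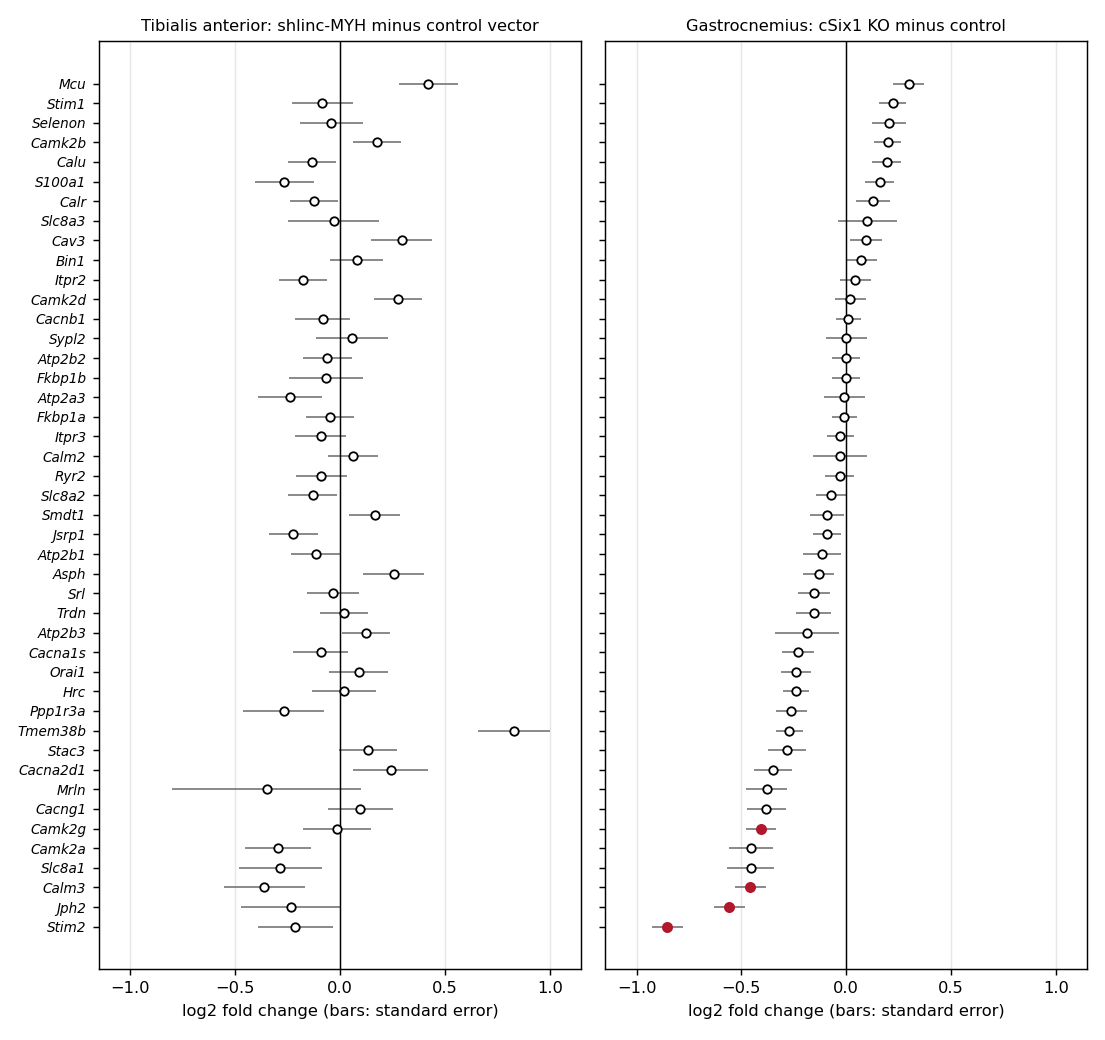
Log2 fold changes with standard errors of the 44 other calcium handling genes, shlinc-MYH minus control vector in TA (left panel) and cSix1 KO minus control in gastrocnemius (right panel), ordered by the gastrocnemius value; red marks an adjusted p under 0.05 in limma. Stim2, Jph2, Calm3 and Camk2g are red at the bottom of the gastrocnemius panel, and no gene is red in TA.

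Markers of fiber type and of other cells moved with some of these results. The mean log2 signal of the 9 slow fiber markers was 11.57 to 11.90 in cSix1 KO muscle and 10.59 to 10.94 in control muscle, with all 9 values above 0 and a median of 1.03, beside 0.83 for Atp2a2 and 0.94 for Casq2. In TA 7 of the 9 were above 0 with a median of 0.81. Myh7, the slow myosin, was at 5.00 ± 0.03 in shlinc-MYH fibers and at 5.33 ± 0.49 in control fibers (SD, n = 2 each). Its control signal was near the middle of all control signals, at percentile 50.5. Of the 7 fast fiber markers, 6 were below 0 in gastrocnemius, with a median of -0.14 and 0 called. At an unadjusted p under 0.05 in limma 3 of them were lower, against 1296 of all 19938 genes. The mean signal of the fast list was 13.11 to 13.195 in cSix1 KO muscle and 13.25 to 13.29 in control muscle. In TA 6 of the 7 were below 0, with a median of -0.07. There the mean signals were 12.25 to 12.41 in shlinc-MYH fibers and 12.41 to 12.48 in control fibers. Of the 6 macrophage markers, all were above 0 in gastrocnemius and 1 was called, Mrc1 at 0.77. At an unadjusted p under 0.05 in limma 5 of them were higher, against 1683 of all 19938 genes. The mean signal of the 6 was 7.86 to 8.74 in cSix1 KO muscle and 7.39 to 7.62 in control muscle. The 5 fibroblast markers were likewise all above 0 there, with a median of 0.31, 0 called and 4 at an unadjusted p under 0.05 in limma, and mean signals of 10.75 to 10.83 in cSix1 KO muscle and 10.28 to 10.65 in control muscle. The 7 endothelial markers were all below 0 in TA, with a median of -0.74 and 0 called. At an unadjusted p under 0.05 in limma 6 of the 7 were lower, against 872 of all 19938 genes. Their mean signals were 6.31 to 6.94 in shlinc-MYH fibers and 7.25 to 7.35 in control fibers. The part of these markers in the calcium genes was not tested.

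Since Atp2a2, Casq2 and Pln are also the forms of the heart, 6 heart markers were read beside them. In gastrocnemius Nppa was at 5.97 in cSix1 KO muscle and 5.96 in control muscle, Myl7 at 6.12 in cSix1 KO muscle and 6.11 in control muscle, and Ryr2 at 5.70 in cSix1 KO muscle and 5.73 in control muscle. All 3 were near the dim end, with control signals at percentiles 31.4, 34.3 and 27.5. Myh6, which encodes the heart's alpha myosin and is a close relative of the slow myosin gene Myh7, was higher by 0.77 (adjusted p = 0.0118 in limma), and its probe set may also read Myh7. Myl4, a light chain of the atria and of developing muscle, was at 11.21 in cSix1 KO muscle and 10.57 in control muscle (0.64, adjusted p = 0.187 in limma), and Tnni3, the heart's troponin I, at 6.63 in cSix1 KO muscle and 6.47 in control muscle. In TA none of the 6 was called. Myl4 was at 9.06 and 9.30 in shlinc-MYH fibers, against 6.85 and 8.06 in control fibers (1.72, adjusted p = 0.409 in limma), without overlap, and the other 5 had differences below 0, from -0.26 to -0.02.

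For the 5 genes with a log2 difference of 0.5 or more in size in either tissue, the 3 most similar patterns were sought as the smallest Euclidean distance over the 10 arrays, after subtraction of the control mean in each tissue. The patterns nearest to Atp2a2 were those of Stom, Arpp21 and Ift122, at distances of 0.49 to 0.53. Those nearest to Casq2 were Peg3, Anxa4 and Igf2, at 0.66 to 0.81, and those nearest to Sln, at the larger distances of 1.69 to 2.22, were Zdbf2, Tnnt2 and Runx1. For Pln they were Olfr119, Kcnk1 and Asb15, at 0.37 each, and for Ryr3 they were Mir337, Myh6 and Plcl1, at 0.36 to 0.45. A small distance says only that the values ran alike over these arrays.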

How the data were processed

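The members and the gene lists were chosen with earlier results of these data known. The authors deposited 1 table of log2 signals, 1 value per probe set and array, made by RMA. The processing notes name RMA and Partek without versions, while the methods name R, and neither genome build nor annotation release is given in the sources used here. Very bright and very dim signals are compressed in such array values. Of 35556 probe sets, with 0 missing values, 21789 carried 1 gene symbol in the platform annotation, 1621 several and 12146 none. Where a gene had several probe sets (999 genes), the brightest on average over the 10 arrays stood for it.

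The tissues were fitted separately, by lmFit and eBayes of limma 3.58.1 (R 4.3.3), with Benjamini-Hochberg adjustment over 19938 genes and a threshold of 0.05. The script was tested on simulated data. Figures were drawn with Python 3.11.15 and matplotlib 3.10.9. Arrays give no depth, so their number limits the precision. Named were all 10 members, every called gene of the other calcium handling list or, with 0 called, the 4 with the largest moderated statistic in size, and the 3 genes nearest to each member that differed by 0.5 or more in size. Alternatives were quantile normalization, centring on array medians, leaving out dim genes, the mean of all probe sets, and a robust prior with an intensity trend. Others were weights for the arrays, a block for the replicate number, all 10 arrays in 1 fit, and the methods' t-test. Each probe set of the 10 genes was also read on its own, and each array was left out in turn. Some items are not reported here.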

Additional observations from a re-analysis of the deposited data

Results flagged for a closer look

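Among the calcium handling genes named outside the 10, Tmem38b, a counter-ion channel of the sarcoplasmic reticulum, was the gene for which a test of the difference between the comparisons passed. It stood at 8.55 and 8.20 in shlinc-MYH fibers, against 7.70 and 7.40 in control fibers of TA, and at 9.71, 9.66 and 9.73 in cSix1 KO muscle, against 10.02, 9.99 and 9.91 in control muscle of gastrocnemius. Both shlinc-MYH arrays were above their controls and all 3 cSix1 KO arrays below theirs, with log2 differences of 0.83 in TA and -0.27 in gastrocnemius. The difference between these was 1.10 ± 0.17 (SE; adjusted p = 0.0396 in limma, over all 19938 genes and 10 arrays), while neither comparison was called on its own arrays (adjusted p = 0.393 in TA and 0.0941 in gastrocnemius, in limma). Under alternatives that kept all arrays, TA was called with all 10 arrays in 1 fit (0.0248 in limma), in a range up to 0.740 in the methods' t-test. Gastrocnemius was called with array centring (0.0493) and array weights (0.0265, in a range of 0.0265 to 0.329 over the alternatives). The difference was no longer called in limma under quantile normalization (1.05, adjusted p = 0.0859). Without any 1 of the 6 gastrocnemius arrays it was not called either (0.0613 to 0.122 in limma). Over the alternatives that kept all TA arrays the adjusted p ran from 0.0179 to 0.122. With 1 TA array left out the difference was 0.93 to 1.28, and calls from these fits are not read.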

How the results depend on the processing

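In gastrocnemius 4 of the 10 genes were called, against 7 with array weights (989 of all genes, against 347). With the methods' t-test 0 were called (4 of all genes). With 1 array left out 2 to 5 were called (2 without control replicate 1 or cSix1 KO replicate 2). The methods' t-test gave 9 of the 10 a p under the threshold in gastrocnemius (13.1% of all genes) and 2 in TA (6.94%), with 0 of them after Benjamini-Hochberg adjustment in either. In TA 1 gene, Sln, was called with array centring (1.74), with the replicate block and with all 10 arrays in 1 fit. There 10, 5 and 131 of all genes were called. With any 1 TA array left out a group has 1 array, assumed to vary like the other, so calls from those fits are not read. The difference between comparisons had 0 calls throughout. With the replicate number as a block, Jph1 in gastrocnemius was not called (-0.46, adjusted p = 0.0612 in limma). Deviations of each gene from its group mean were correlated between arrays of opposite groups. In TA the same-numbered pairs gave 0.185, and the others -0.185, which 2 arrays per group fix in advance. In gastrocnemius the same-numbered pairs gave 0.216, -0.137 and 0.084, and the others ran from -0.36 to 0.288. No source ties a number to a mouse, so the numbers were not taken as pairs, although the TA groups may share mice. All genes called in gastrocnemius numbered 347 and under the block 186; without cSix1 KO replicate 3 they numbered 560 and without cSix1 KO replicate 2 they numbered 51.

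Directions turned only where values were near 0 or had a wide spread. In TA, with 1 array left out, Casq1 ran from -0.22 to 0.15, Pvalb from -0.13 to 0.023, Ryr1 from -0.24 to 0.041 and Ryr3 from -0.20 to 0.017, and Pvalb was 0.033 under quantile normalization. Pln in gastrocnemius ran from -0.17 to 0.014. The difference between comparisons ran from -0.31 to 0.18 for Atp2a2 and from -0.36 to 0.71 for Casq2, and under array centring was 0.0095 for Atp2a1 and 0.0099 for Atp2a2. Ryr3 minus Ryr1 in TA was 0.054 under quantile normalization, and -0.02 to 0.04 with 1 array left out. The cause of these changes was not tested.

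Of 140 values of the 10 genes under alternatives in TA, 131 kept their direction and side of the threshold, and in gastrocnemius 138 of 160 did. Much of this was fixed in advance: several alternatives left the log2 difference unchanged, and a gene with 1 probe set repeated its main value. These counts are therefore no measure of how firm the results are. Of the other calcium handling genes called in gastrocnemius, Jph2, Calm3 and Camk2g were not called with all 10 arrays in 1 fit (-0.56, -0.46 and -0.40), and Calm3 and Camk2g not with the replicate block. With dim genes left out, Ryr3 was not in the fit.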
